A study of Homo sapiens with 14 samples.

Results

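Transcripts of the dual specificity MAP kinase phosphatases were followed through a BRAF inhibitor time course in WM9 cells. The set was all probes whose platform annotation named DUSP1, DUSP2, DUSP4, DUSP5, DUSP6, DUSP7, DUSP8, DUSP10 or DUSP16, which made 11 probes for 9 genes, out of 30113 probes with 1 gene name for 20046 genes. A probe entered the tests if it was above background on at least 2 of the 14 arrays, and 9 probes for 8 of the genes did so, out of 12742 genes tested in all. DUSP7 did not pass and is described by its signals alone.

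WM9 is an established human melanoma cell line, and the study asked how its transcripts change while BRAF, the kinase that drives the RAF-MEK-ERK cascade in many melanomas, is inhibited. PLX4720, a BRAF inhibitor, was given at 10 µM for 12, 24, 48, 60, 72 or 96 h, and control cells had DMSO, the solvent, for 96 h. Illumina arrays with 1 colour were used, 2 for each of the 7 groups, and the design text calls the 2 biological replicates. There was 1 control group, at 96 h, so the comparisons of 12 to 72 h with DMSO also hold a difference in hours of culture. The same holds between treated times, where hours in PLX4720 and hours of culture cannot be told apart. All cells were of 1 line, so the replicates measure spread within WM9 only.

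MAP kinase phosphatases remove the phosphates from both the threonine and the tyrosine that switch a MAP kinase on. DUSP1, DUSP2, DUSP4 and DUSP5 are nuclear enzymes whose genes are typically induced by the kinases they act on, DUSP6 and DUSP7 are cytoplasmic and selective for ERK, and DUSP8, DUSP10 and DUSP16 act mainly on the stress kinases JNK and p38. Because several of these genes are transcribed in response to ERK, their transcripts serve both as feedback brakes on the cascade and as a common readout of its output in melanoma cells.

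RefSeq promoter sequence was at hand for 7 of the 9 genes, with 8 start sites (build GRCh38.p14). The 250 bases before the start of 3 genes are shown because DUSP6 had the largest difference from DMSO among the members, and because DUSP1 and DUSP8 were the 2 of these 7 with a cyclic AMP response element. All 3 lie on the minus strand and are written 5′ to 3′ in the direction of transcription. The capitals mark an ETS site of the PEA3 type in DUSP6, read here on the opposite strand, and cyclic AMP response elements in DUSP1 and DUSP8.
DUSP6, chr12:89352502-89352751: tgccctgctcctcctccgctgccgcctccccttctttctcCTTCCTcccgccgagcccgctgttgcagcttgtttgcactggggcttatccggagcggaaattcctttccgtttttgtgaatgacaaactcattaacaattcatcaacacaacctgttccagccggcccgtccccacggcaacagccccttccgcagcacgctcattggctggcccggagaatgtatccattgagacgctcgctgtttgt
DUSP1, chr5:172771196-172771445: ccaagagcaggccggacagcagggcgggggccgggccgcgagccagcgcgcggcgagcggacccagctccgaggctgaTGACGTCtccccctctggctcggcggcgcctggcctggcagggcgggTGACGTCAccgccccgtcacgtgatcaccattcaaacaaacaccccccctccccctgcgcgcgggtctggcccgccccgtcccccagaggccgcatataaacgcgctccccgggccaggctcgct
DUSP8, chr11:1572272-1572521: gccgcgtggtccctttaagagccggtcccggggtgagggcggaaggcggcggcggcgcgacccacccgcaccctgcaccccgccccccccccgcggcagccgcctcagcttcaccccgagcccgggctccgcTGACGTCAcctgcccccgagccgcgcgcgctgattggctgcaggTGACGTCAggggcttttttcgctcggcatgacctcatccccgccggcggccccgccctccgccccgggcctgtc
The ETS motif searched was AGGAAG and the response element TGACGTC, each on both strands, and a palindromic response element is found on both. In DUSP6 the ETS motif began at position -210 from the start. The same motif was found in the promoter of DUSP2 and at the start of DUSP10 that lies inside the gene. The stretch shown for DUSP8 also lies inside its gene (chr11:1554051-1572848). Of the 35116 promoters in the table, 28.7% hold that motif, and 3 of the 8 start sites among the members do. The response element was found in 3.12% of all promoters and at 2 of the 8 start sites. An SP1 type GC box, CCCGCCC, was at 7 of the 8 start sites, DUSP6 being the one without it, against 31.5% of all promoters. An AP-1 site (TGACTCA), an NF-kB site (GGGACTT) and the CArG box of SRF were at none of the 8, and these letters are held by 4.2%, 4.34% and 1.16% of all promoters.

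Signals were background corrected, put on a log2 scale and quantile normalized, and every level and difference is on that scale unless raw signals are named. Median raw signals were 232 to 316 on the PLX4720 arrays and 366 to 370 on the DMSO arrays, and a probe had to exceed 264 to 353 on the PLX4720 arrays and 409 to 427 on the DMSO arrays to count as above background. This difference in background level goes with the treatment, and the 2 cannot be told apart in the comparisons with DMSO. Of 8 markers of the melanocyte lineage, MITF, SOX10, TYRP1 and GPM6B were above background on all 14 arrays and the others on 6 to 12. On the lists for other cell types, PTPRC and CD3E of leukocytes and COL1A1 and COL3A1 of fibroblasts were above background on 0 arrays. So were KRT5, KRT1 and DSG3 of keratinocytes, and VWF and CDH5 of endothelium. Other markers on the same lists exceeded it: CD2 and CD68 of leukocytes and DCN and LUM of fibroblasts on all 14 arrays. KDR did so on 10, PDGFRB on 6, LYZ on 5, KRT14 on 2 and PECAM1 on 1. Their part in the results was not tested. The arrays measured bulk RNA, so less RNA per cell and fewer cells with the transcript cannot be told apart.

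After 12 h in PLX4720, 6 of the 8 tested phosphatase genes differed from DMSO: DUSP6, DUSP5, DUSP1, DUSP16 and DUSP4 were lower and DUSP10 was higher (limma, adjusted p under 0.05 over all 12742 genes). With array weights 2 of the 8 were called, DUSP6 and DUSP5, and the adjusted p of the other 4 was 0.0522 to 0.123. Calls among all 12742 genes also fell with these weights, to 853 from 2199 as reported. The 2 DMSO arrays differed more from each other than any treated pair: the SD over genes of the difference between replicates was 0.559 in DMSO, against 0.301 to 0.348 in the PLX4720 groups. In the 12 h comparison as reported, without array weights, 17.3% of all tested genes were called, 9% higher and 8.26% lower. The median difference of the 8 members was -0.84, against 0.06 for all genes tested. At 24 h 4 members were called, with DUSP6, DUSP5 and DUSP4 lower and DUSP10 higher, beside 20.8% of all genes (11.5% higher and 9.31% lower). From 48 h on only DUSP6 and DUSP5 of the 8 tested genes were called, both lower, while the share of all genes called was 25.1% at 48 h, 25.2% at 60 h, 27.8% at 72 h and 29.9% at 96 h. Lower calls alone made up 11.2%, 11.1%, 12.7% and 13.5% of all genes at those 4 times. The members' median difference was -0.52 at 24 h and 0.02 at 96 h. Median scaling in place of quantile normalization moved the median of all genes to -0.14 at 12 h and -0.27 at 96 h, and the members' medians to -1.01 and -0.36.

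**Figure D1:**
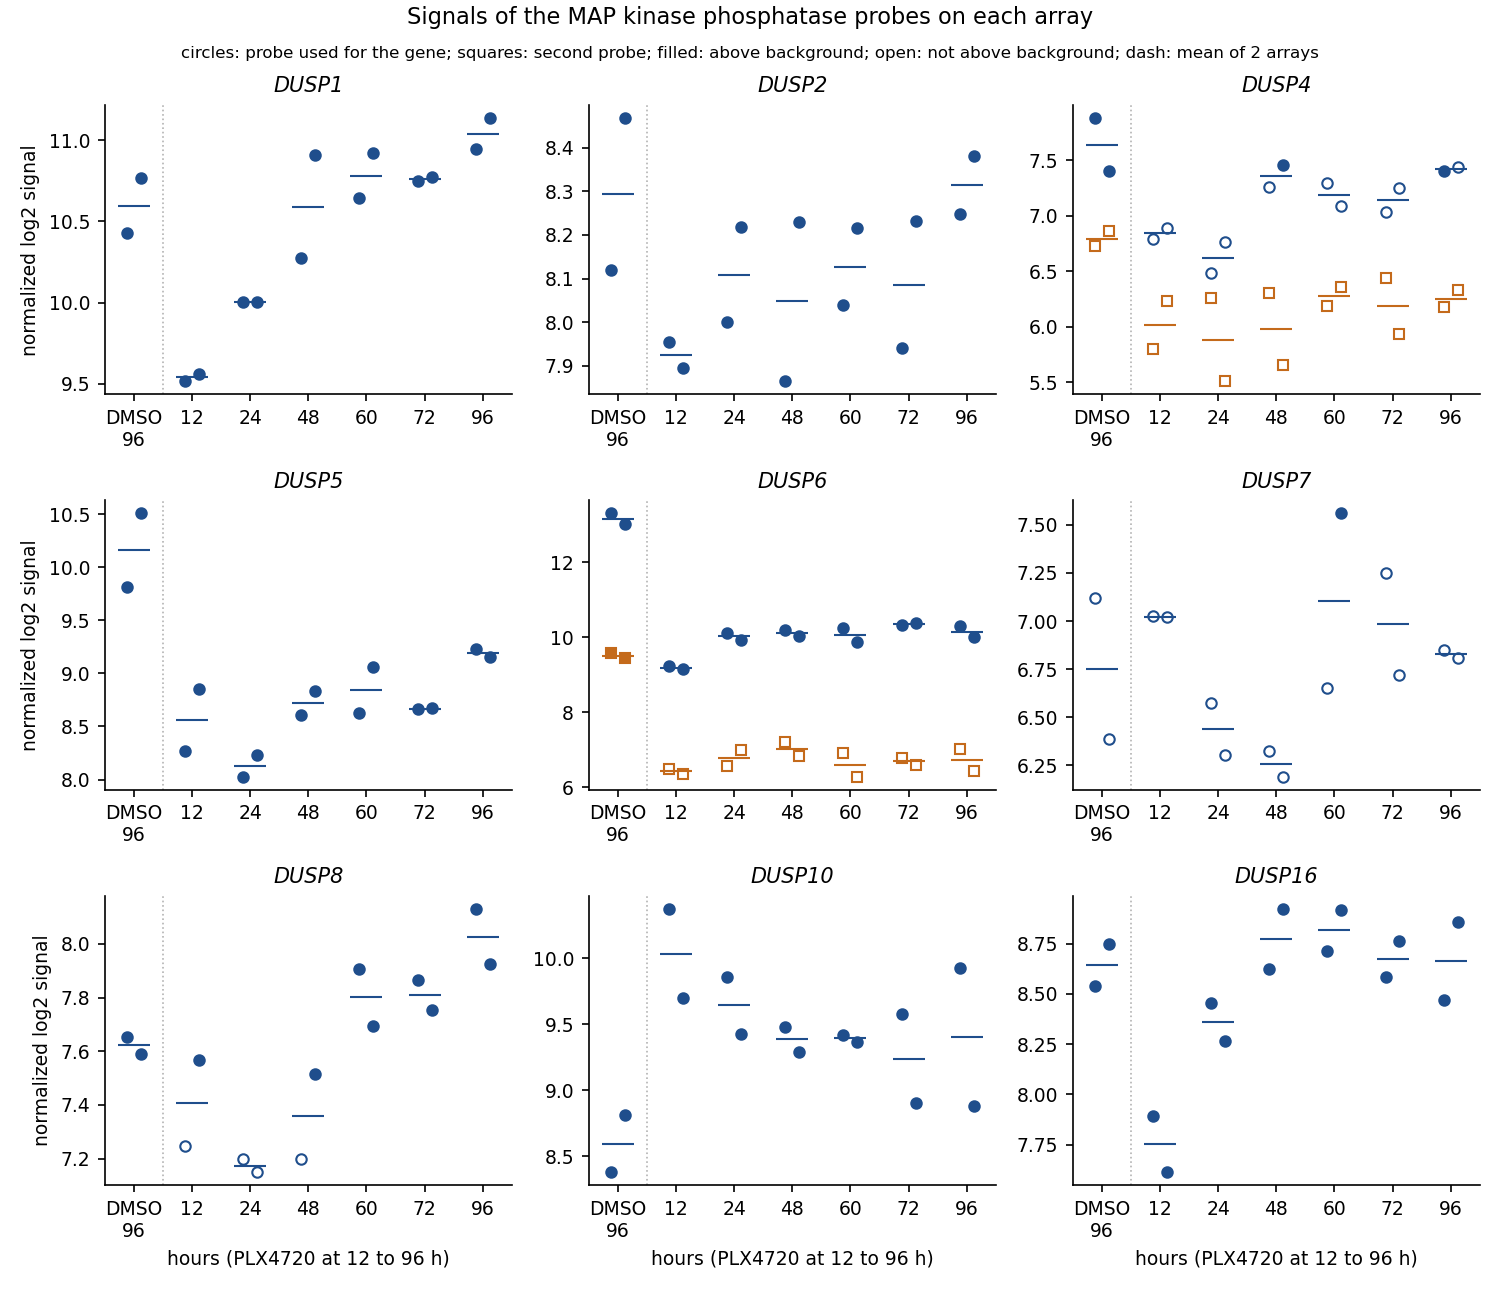
Normalized log2 signal (vertical axes, which differ between panels) of each of the 11 probes on each of the 14 arrays, with DMSO at 96 h at the left and PLX4720 at 12 to 96 h to its right. Filled points were above background, open points were not, and dashes mark group means. DUSP6 is below its DMSO arrays at every time, while DUSP1 and DUSP16 are lowest at 12 h and, on this normalized scale, near their DMSO arrays from 48 h.

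DUSP6, the cytoplasmic ERK phosphatase (chr12:89347235-89352501), had the largest difference from DMSO of all members at every time. Its brighter probe read 9.23 and 9.14 at 12 h, against 13.30 and 13.01 in DMSO. In raw signal that was 873 and 625 at 12 h, against 18114 and 13913 in DMSO, well above background on every array. The 12 h level was 15.7-fold lower than DMSO (log2 -3.97, SE 0.19, adjusted p = 5.66e-08), and ranked 6 among the 12742 tested genes from the most negative difference. The arrays of 24 h gave 10.12 and 9.92, those of 48 h 10.18 and 10.03, those of 60 h 10.23 and 9.86, those of 72 h 10.33 and 10.38 and those of 96 h 10.30 and 10.01. Every treated array lay below both DMSO arrays, and both 12 h arrays lay below all other treated arrays. The transcript was 8.79-fold lower than DMSO at 24 h, 8.29-fold at 48 h, 8.64-fold at 60 h, 6.98-fold at 72 h and 8.03-fold at 96 h (SE 0.19 on the log2 scale, adjusted p = 2.85e-07 at 96 h). Between 24 and 96 h the group means spanned 10.02 to 10.36, and neighbours in that order were 0.02 to 0.20 apart, beside a pooled SD of 0.16.

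The second DUSP6 probe was also lower than in DMSO, but could give only bounds. It exceeded background on 0 of the 12 PLX4720 arrays and on both DMSO arrays, at 9.58 and 9.45, so its bounds were set by the dimmest signal that counts as above background. By that measure DUSP6 was at least 4.58-fold lower at 12 h and at least 4.29-fold lower at 96 h. All 22961 probes above background on at least 2 arrays were also tested on their own. This probe passed that filter only through the DMSO arrays, where it was highest. Its adjusted p against DMSO is therefore no further support and is not given. With the mean of both probes, the difference between 24 and 12 h given further on was 0.60 (adjusted p = 0.0878).

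DUSP7, the other cytoplasmic ERK phosphatase (chr3:52048919-52056571), exceeded background on 1 array of 14, replicate 2 of 60 h, with a raw signal of 294. Its raw signals were 202 to 323 on the PLX4720 arrays and 308 to 384 on the DMSO arrays. All but 1 of these signals lay within the background of their own array, so no difference between groups could be measured.

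DUSP5, the nuclear phosphatase specific for ERK (chr10:110497907-110511533), was the other gene held below DMSO throughout. It read 8.27 and 8.85 at 12 h, against 9.82 and 10.51 in DMSO. At 24 h, its lowest time, it read 8.03 and 8.23. These levels were 3.03-fold lower than DMSO at 12 h (log2 -1.60, SE 0.25, adjusted p = 8.16e-04) and 4.09-fold lower at 24 h (log2 -2.03, adjusted p = 1.02e-04, and -1.41 in the deposited log2 values). The arrays of 48 h gave 8.61 and 8.84, those of 60 h 8.63 and 9.06, those of 72 h 8.66 and 8.67 and those of 96 h 9.23 and 9.16. No treated array overlapped the DMSO arrays, and the 96 h arrays were above all other treated arrays. The difference was 1.96-fold at 96 h (log2 -0.97, adjusted p = 0.0117). That last call rested on single arrays: without replicate 2 of 96 h the adjusted p was 0.0618, and without replicate 2 of DMSO the difference was -0.62 with an adjusted p of 0.0773.

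DUSP1, a nuclear and rapidly induced phosphatase that acts on p38, JNK and ERK (chr5:172768096-172771195), was called lower at 12 h and at no later time. It read 9.52 and 9.56 at 12 h, against 10.43 and 10.77 in DMSO. This was a 2.08-fold lower level (log2 -1.06, SE 0.22, adjusted p = 0.00458). The arrays of 24 h gave 10.00 and 10.00, those of 48 h 10.27 and 10.91, those of 60 h 10.64 and 10.92, those of 72 h 10.75 and 10.78 and those of 96 h 10.94 and 11.14. Both 24 h arrays lay below both DMSO arrays, by 0.59 on average, which missed the threshold (adjusted p = 0.0679). It was a call in 7 of 25 alternatives, among them median scaling (-0.88, 0.0174), the deposited log2 values (0.0449), no background correction (0.0477), and leaving out replicate 1 of DMSO (0.0398) or either 48 h array (0.0413). From 48 to 72 h the levels overlapped those of DMSO. At 96 h both arrays were above both DMSO arrays, by 0.44 with a 95% interval of -0.02 to 0.91 (adjusted p = 0.143), and this difference was 0.00 with median scaling. In raw signal, for which background also differed, the arrays from 48 h on were all below DMSO, at 1553 to 2046 against 2657 and 2774.

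**Figure D2:**
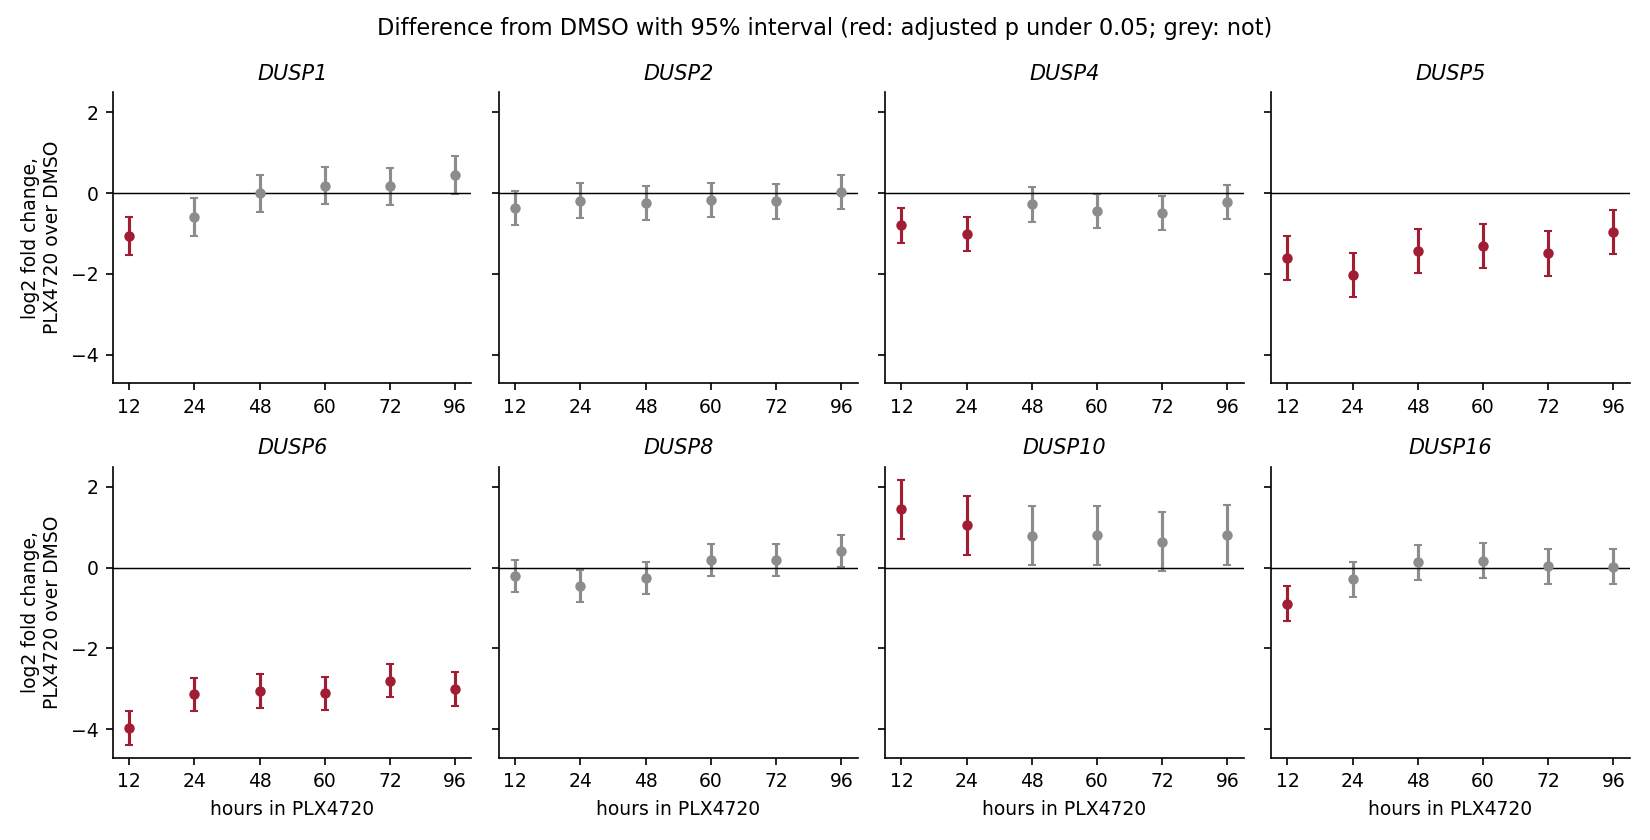
Log2 fold change of PLX4720 over DMSO (vertical axis, shared) by hours in PLX4720 for the 8 tested genes, with 95% intervals from limma. Red points had an adjusted p under 0.05. DUSP6 stays between -3.97 and -2.80 and DUSP5 between -2.03 and -0.97, DUSP10 lies above 0, and no other gene was called from 48 h on.

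DUSP4, a nuclear phosphatase induced by ERK (chr8:29333064-29350684), was measured near the limit of the array. Its brighter probe was above background on both DMSO arrays, 1 array of 48 h and 1 of 96 h, and its other probe on 0 of 14 arrays. The brighter probe read 6.79 and 6.89 at 12 h, against 7.88 and 7.40 in DMSO. At 24 h it read 6.48 and 6.76, again on arrays where it was not above background. DUSP4 was therefore at least 1.25-fold lower than DMSO at 12 h (fitted log2 -0.80, adjusted p = 0.0144) and at least 1.23-fold lower at 24 h (fitted log2 -1.02, adjusted p = 0.00281). The arrays of 48 h gave 7.26 and 7.46, those of 60 h 7.30 and 7.08, those of 72 h 7.03 and 7.25 and those of 96 h 7.41 and 7.43. None of these 4 times was called. The 12 h call was lost without either 12 h array (adjusted p = 0.0840 and 0.0592) or without replicate 1 of DMSO (0.0630), and the differences at 60 and 72 h became calls without replicate 2 of DMSO (0.0240 and 0.0187). The gene passed the filter mainly through the DMSO arrays, where it was highest.

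DUSP2, a nuclear phosphatase best known from activated lymphocytes (chr2:96143169-96145440), was above background on all 14 arrays and was called in no comparison. It read 7.95 and 7.89 at 12 h, its lowest time, against 8.12 and 8.47 in DMSO. All arrays lay between 7.86 and 8.47. The 12 h difference was -0.37 with a 95% interval of -0.79 to 0.05 (adjusted p = 0.224), and the 96 h difference was 0.02 with an interval of -0.40 to 0.44.

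DUSP10, which acts on JNK and p38 (chr1:221701424-221742089), was the member that rose. It read 10.37 and 9.69 at 12 h, against 8.38 and 8.81 in DMSO, a 2.71-fold higher level (log2 1.44, SE 0.34, adjusted p = 0.0112). At 24 h it read 9.86 and 9.43, 1.05 above DMSO on average (adjusted p = 0.0442). Both early times thus lay above both DMSO arrays. The arrays of 48 h gave 9.48 and 9.29, those of 60 h 9.42 and 9.37, those of 72 h 9.58 and 8.90 and those of 96 h 9.93 and 8.88. All 12 treated arrays were above both DMSO arrays, but the differences of 0.65 to 0.81 from 48 h on missed the threshold (adjusted p = 0.0907 to 0.183). Raw signals, for which background also differed, did not keep this order. They were 774 and 848 in DMSO, 759 to 1723 on replicate 1 of the treated times and 443 to 839 on replicate 2. Its pooled SD of 0.42 was the widest of the tested members, and replicate 1 was the higher array at each of the 6 treated times. The 12 h call was lost without replicate 1 of 12 h (1.10, adjusted p = 0.102) or replicate 1 of DMSO (1.23, 0.0574), and with median scaling (1.21, 0.0939). The 24 h call was lost in 12 of 25 alternatives, 7 of them leaving out 1 array of 24, 48 or 60 h or replicate 1 of DMSO (adjusted p up to 0.222), while without replicate 2 of 96 h the 96 h difference became a call (1.33, 0.0179).

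DUSP16, another JNK and p38 phosphatase (chr12:12473282-12562863), was called lower at 12 h and at no later time. It read 7.89 and 7.61 at 12 h, against 8.54 and 8.75 in DMSO. The level was 1.85-fold lower (log2 -0.89, SE 0.20, adjusted p = 0.00828, and 0.0853 without replicate 2 of 12 h). The arrays of 24 h gave 8.45 and 8.26, those of 48 h 8.62 and 8.92, those of 60 h 8.71 and 8.92, those of 72 h 8.58 and 8.76 and those of 96 h 8.47 and 8.86. Both 24 h arrays lay below both DMSO arrays, by 0.28 on average (adjusted p = 0.35). Every time from 48 h on overlapped DMSO, with a 96 h difference of 0.02 and a 95% interval of -0.41 to 0.45. With median scaling the 96 h difference was -0.39. In raw signal, for which background also differed, the arrays from 48 h on were all below DMSO, at 439 to 625 against 850 and 817.

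DUSP8, also a JNK and p38 phosphatase (chr11:1554051-1572848), was above background on 10 of 14 arrays and was not called against DMSO at any time. It read 7.25 and 7.57 at 12 h, against 7.65 and 7.59 in DMSO. Neither 24 h array, at 7.20 and 7.15, was above background. The arrays of 48 h gave 7.20 and 7.52, those of 60 h 7.91 and 7.70, those of 72 h 7.87 and 7.75 and those of 96 h 8.13 and 7.92. The arrays from 60 h on were all above both DMSO arrays, by 0.41 on average at 96 h with an adjusted p of 0.115. In raw signal, for which background also differed, they were all below, at 305 to 426 against 505 and 463 in DMSO.

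Within the treated cells, 5 of the 8 members were higher at 96 h than at 12 h and none was lower (limma). In that comparison 29% of all tested genes were called and 15.1% were called higher, and the median difference was 0.63 for the members against 0.01 for all genes. DUSP1 was 2.83-fold higher at 96 h (log2 1.50, SE 0.22, adjusted p = 1.82e-04). DUSP6 was 1.95-fold higher (log2 0.96, adjusted p = 0.00192) and DUSP16 1.88-fold higher (log2 0.91, adjusted p = 0.00394). At 96 h DUSP1 and DUSP16 were not called against DMSO, while DUSP6 was 8.03-fold lower. DUSP8 was higher by 0.62 (SE 0.18, adjusted p = 0.0215). DUSP4 was higher by a fitted 0.58 (adjusted p = 0.0424), a bound of at least 1.07-fold. DUSP5 differed by 0.63 (adjusted p = 0.0808), DUSP2 by 0.39 (adjusted p = 0.161) and DUSP10, in the other direction, by -0.63 (adjusted p = 0.191), and none of the 3 passed. Single arrays decided several of these: the DUSP8 call was lost without replicate 1 of 12 h (0.46, adjusted p = 0.171) or of 96 h (0.52, 0.140), the DUSP16 call without replicate 2 of 96 h (0.71, 0.0516), and the DUSP4 call without any 1 of the 12 treated arrays (0.0508 to 0.165). DUSP10 became lower by 1.15 without replicate 1 of 96 h (adjusted p = 0.0341), and DUSP5 a call without replicate 2 of 12 h (0.92, 0.0435) or either DMSO array (0.0354).

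Between neighbouring treated times, members were called only in the steps up to 48 h, where nearly all calls among all genes also fell. An F test among the 6 PLX4720 times called DUSP1 (span of group means 1.50, adjusted p = 0.00107), DUSP6 (1.17, 0.00542), DUSP16 (1.06, 0.00802), DUSP8 (0.85, 0.0167) and DUSP4 (0.80, 0.0396), which is 5 of 8 beside 28.1% of all genes. DUSP5 (1.06, adjusted p = 0.0759), DUSP10 (0.79, 0.411) and DUSP2 (0.39, 0.648) were not called. Between 12 and 24 h DUSP6 alone of the 8 was called, higher by 0.83 (SE 0.19, adjusted p = 0.0125), beside 11% of all genes (6.04% higher). DUSP16 differed by 0.61 in that step (adjusted p = 0.0730, and 0.0486 without either DMSO array). Between 24 and 48 h DUSP4 alone was called, by a fitted 0.73 (adjusted p = 0.0476, at least 1.01-fold), beside 5.65% of all genes (2.35% higher). From 48 to 60 h, 60 to 72 h and 72 to 96 h, limma called 0 members and 0%, 0% and 0.0471% of all genes, with 1, 0 and 0 members at an unadjusted p under 0.05. The DUSP6 step was lost without either 12 h array (adjusted p = 0.0555 and 0.0921) or replicate 1 of 24 h (0.108), and the DUSP4 step in 19 of 25 alternatives. The F test lost DUSP6 and DUSP16 without replicate 2 of 12 h (0.0730 and 0.100), DUSP8 without either 24 h array or replicate 1 of 96 h (0.0518 to 0.0604) and DUSP4 in 18 of 25 alternatives, and it called DUSP5 without either DMSO array (0.0254).

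**Figure D3:**
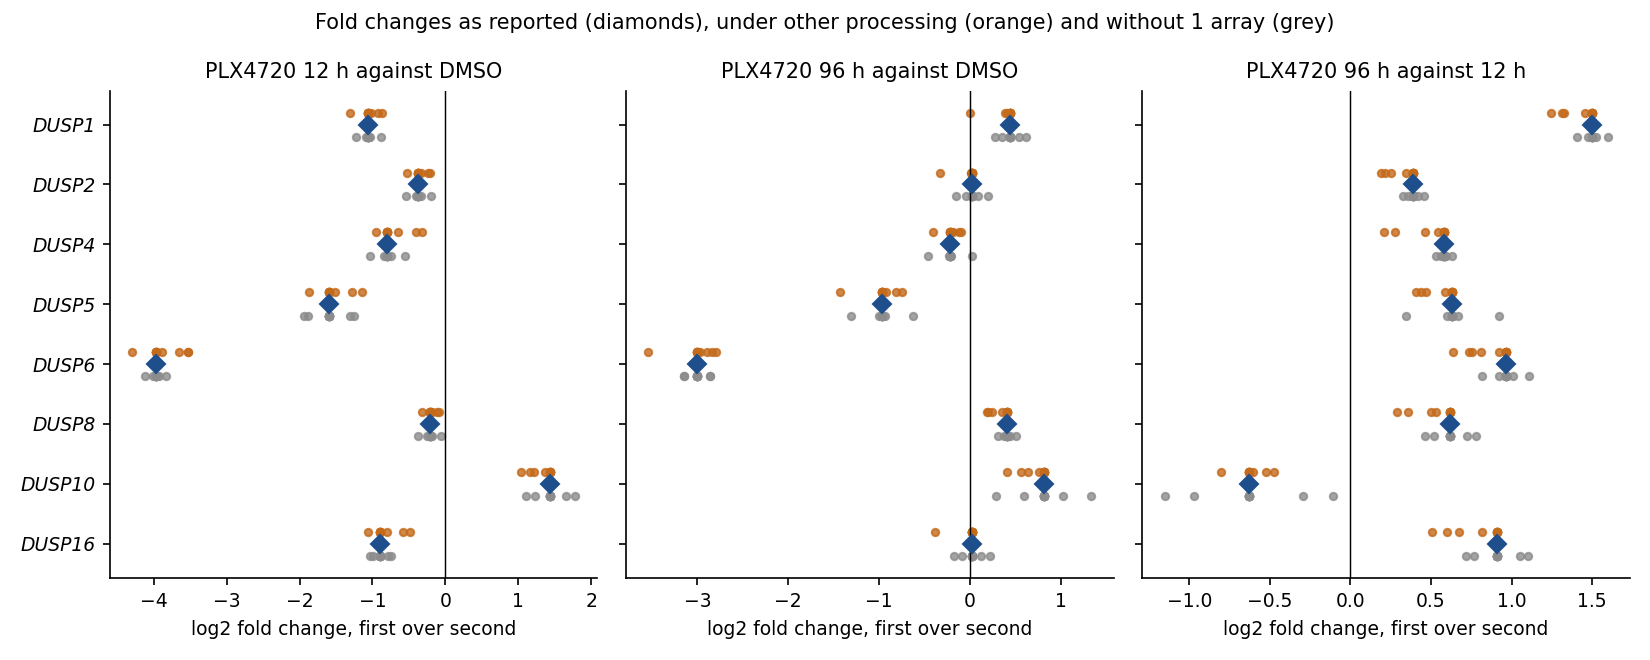
Log2 fold change of the first named group over the second (horizontal axes, which differ between panels) for the 8 tested genes as reported (diamonds), under other processing (orange) and with 1 array left out (grey). DUSP6 and DUSP5 stay below 0 against DMSO at 12 and 96 h under all settings, and DUSP1 stays between 1.25 and 1.60 at 96 h against 12 h.

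Each member's course was set beside those of all other tested genes. Likeness was the root mean square difference over the 14 arrays after each gene was centred on its own mean, and the 2 nearest tested genes were taken for each member whose group means spanned more than 1. SPRY2, a feedback inhibitor of receptor signalling, was the second nearest to DUSP6 (0.40) after IL1RAP, a subunit of the interleukin 1 receptor (0.38). The SPRY2 difference from DMSO was -4.26 at 12 h and -3.29 at 96 h, beside -3.97 and -3.01 for DUSP6. Nearest to DUSP5 were the ephrin receptor EPHA2 (0.21) and FJX1 (0.23). DUSP1 was closest to the Wnt receptor FZD9 (0.13) and the plexin PLXNA1 (0.13), and DUSP16 to PLEKHH1 (0.12) and the mannosyltransferase POMT2 (0.14). The nearest genes to DUSP10 were CHAC1, a glutathione degrading enzyme of the stress response (0.20), and the elongation factor SUPT6H (0.21), and those to DUSP4 were ITPRIPL2 (0.15) and the RNA polymerase I subunit POLR1B (0.17).

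Genes around the phosphatases in the same cascades were counted from lists. The Sprouty and SPRED proteins, which restrain the cascade upstream of ERK, were lower in most cases: 5 of the 5 tested, out of 7 listed, were lower at 12 h (median -4.26) and 4 of 5 at 96 h (median -2.73), beside 8.26% and 13.5% of all genes. With no filter on dim probes the 7 gave 5 lower at 12 h (median -1.20) and 4 at 96 h (median -1.04), and with the mean of a gene's probes the 12 h median was -2.95. SPRY4 had the largest difference, with log2 -5.83 at 12 h and -5.28 at 96 h (adjusted p = 4.90e-08 and 4.57e-08). It exceeded background on 1 of the 12 h arrays, and with the mean of its probes the differences were -2.95 and -2.61. Of 17 tested genes for transcription factors that ERK induces or acts through, 9 were lower and 1 higher at 12 h. At 96 h, 9 were lower and 3 higher. Among all genes 8.26% were lower and 9% higher at 12 h, and 13.5% lower and 16.4% higher at 96 h. ETV5, an ETS factor of the PEA3 group, was 31.3-fold lower at 12 h and 13.8-fold lower at 96 h, whereas JUN, the AP-1 subunit that JNK phosphorylates, was 2.65-fold higher at 96 h (log2 1.40, adjusted p = 1.42e-04). FOSL2 was the 1 gene of that list higher at 12 h (log2 0.64, adjusted p = 0.0481), a call lost in 17 of 24 alternatives.

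The genes of the kinases themselves were counted beside 17.3% of all genes called at 12 h and 29.9% at 96 h. Among 8 tested genes for RAS, RAF, MEK and ERK kinases, 1 was higher and 0 lower at 12 h, and 2 were higher and 0 lower at 96 h, with medians of 0.07 and -0.04. The 12 h call was the scaffold KSR1, which was not above background in DMSO, and was at least 1.01-fold higher at 12 h and at least 1.05-fold at 96 h. Among 10 genes for JNK, p38 and their activators, MAPK9, which encodes a JNK, was higher at 12 h by its brightest probe (log2 0.84, adjusted p = 0.00299, but log2 0.02 and adjusted p = 0.96 with the mean of its probes) and MAP2K3, an activator of p38, was lower (log2 -0.73, adjusted p = 0.0362). At 96 h, 1 of the 10 was higher and 3 were lower, and MAP3K5, a kinase that activates both branches, was one of these 3, not above background on either 96 h array and at least 1.36-fold lower. Of 24 alternatives, the 12 h calls of KSR1, MAPK9 and MAP2K3 were lost in 4, 3 and 8, and the MAP3K5 call in 2. The gene higher at 96 h was MAPK9 (log2 0.47, limma adjusted p = 0.0397), a call lost in 18 of 24. Of 11 genes for other proteins that dephosphorylate or hold MAP kinases, limma called 0 at 12 h, with 1 at an unadjusted p under 0.05, and 1 at 96 h, the ERK anchoring protein PEA15 (log2 1.05, adjusted p = 0.00111).

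Of 16 other dual specificity phosphatases listed, 14 were tested, and none was called lower than DMSO at 12 or 96 h. At 12 h, 1 was higher and 0 lower (median 0.16), beside 9% of all genes higher and 8.26% lower. That gene was DUSP18 (2.08-fold, adjusted p = 8.19e-04). At 96 h, 5 were higher and 0 lower (median 0.47), beside 16.4% of all genes higher and 13.5% lower. The 5 were DUSP15, 2.33-fold higher (adjusted p = 0.00207), DUSP22, DUSP28, DUSP3 and DUSP18. With median scaling the 96 h count was 2 higher and 2 lower, with a median of 0.10. With no background correction it was 5 higher and 1 lower.

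**Figure D4:**
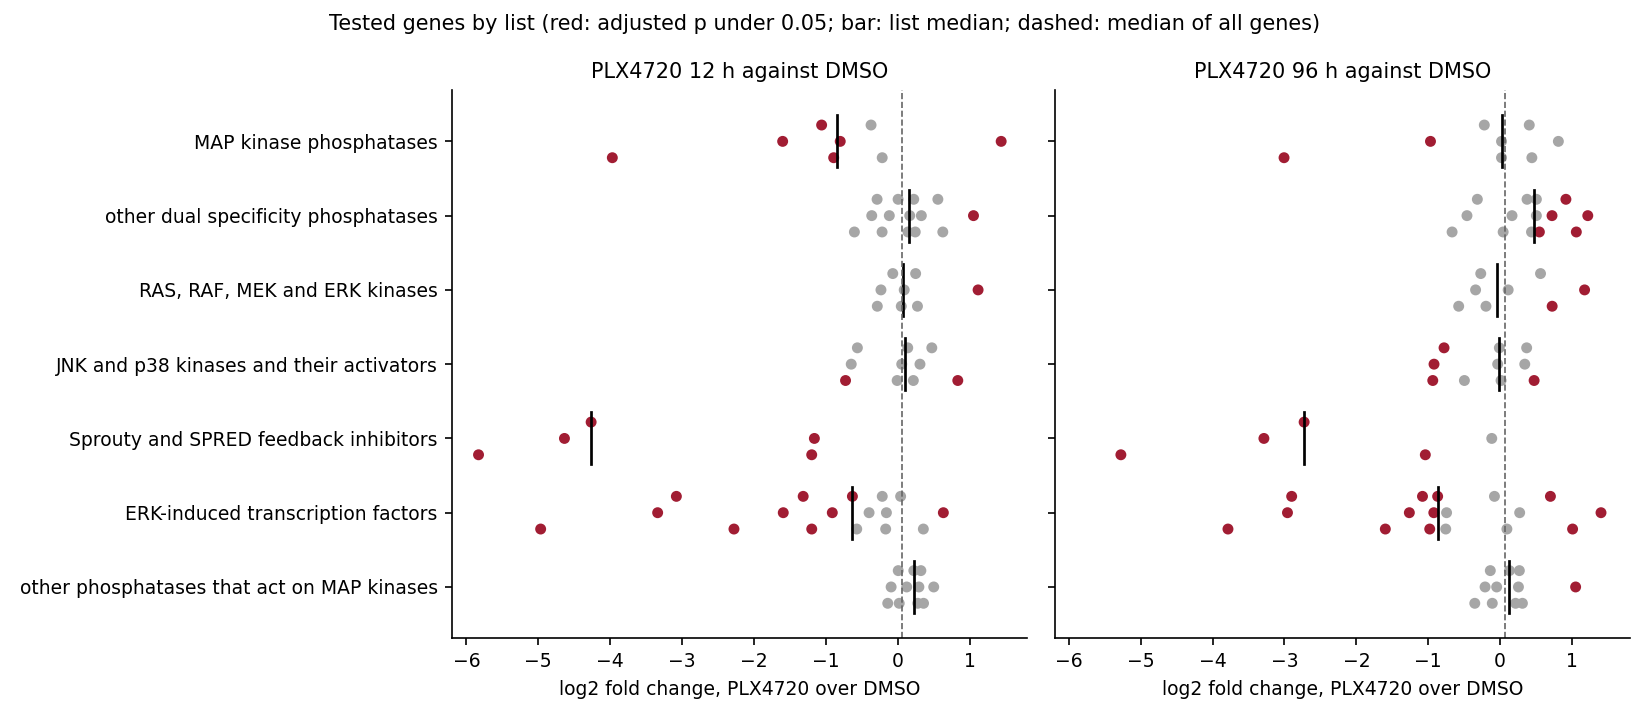
Log2 fold change of PLX4720 over DMSO (horizontal axis, shared) at 12 h (left panel) and 96 h (right panel) for each tested gene of the 7 lists. Red points had an adjusted p under 0.05, bars are list medians and the dashed line is the median of all tested genes. The MAP kinase phosphatase median is -0.84 at 12 h and 0.02 at 96 h, while the Sprouty and SPRED median is -4.26 and -2.73.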

How the data were processed

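The authors deposited unnormalized bead array signals, a linear intensity for each of 47322 probes in each sample, as the file headers and values show. Their scanner and summary software are not stated. A deposited table of log2 values, quantile normalized by the authors as its values show, served as an alternative. The design called for normexp correction (limma 3.58.1, R 4.3.3, saddle-point, offset 16) and quantile normalization of the intensities. A probe was above background when it exceeded the mode of its array by the 1% upper tail of a normal with the spread below the mode. Probes were named from the platform annotation, updated to RefSeq (GRCh38.p14, whose coordinates are printed), and the brightest probe above background on at least 2 arrays stood for a gene. Groups of 2 arrays allow no outlier test, and their number limits precision. All 14 arrays entered 1 limma fit (lmFit, eBayes, 7 residual and 5.86 prior degrees of freedom), two-sided, with Benjamini-Hochberg adjustment over all 12742 genes and a threshold of 0.05. Where a group was not above background on either array, a bound replaced the fold. The method was tested on simulated data, and 25 alternatives were run, 14 of them leaving out 1 array. Named genes were the 9 members, the 2 genes most like each member with a span over 1, and in each list those with the largest rise and fall at 12 and 96 h, and genes named to explain a count of 5 or fewer were chosen after their values were seen. Members and lists were chosen with earlier results of these data known. BRAF was not analysed here, and proteins and a genome were not used here.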

Additional observations from a re-analysis of the deposited data

Results flagged for a closer look

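For 5 members the level differed between 96 h and 12 h in PLX4720, by the limma contrast of these 2 treated times. That difference holds no DMSO value, but its error was pooled over all 14 arrays. There was no DMSO group at 12 h, so hours in PLX4720 and hours of culture cannot be told apart in it. DUSP1 was higher at 96 h by 1.50 on the log2 scale, DUSP6 by 0.96, DUSP16 by 0.91, DUSP8 by 0.62 and DUSP4 by a fitted 0.58. In each of the 5 genes both 96 h arrays lay above both 12 h arrays. DUSP8 and DUSP4 were near background, and DUSP4 was above it on 1 of these 4 arrays.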

How the results depend on the processing

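The 25 alternatives gave 750 values for differences that were called as reported, of which 641 kept the call, 109 lost it and 0 changed sign, and 1250 values for differences that were not called, of which 26 became calls and 22 changed sign. Most of these values could not change sign. A span in the F test is always positive. Array weights, a replicate block, only the arrays compared and each probe on its own left the difference itself unchanged. So did leaving out an array of a group that was not compared. DUSP6 and DUSP5 against DMSO kept their calls at 12 to 72 h in every alternative, as DUSP6 did at 96 h. With array weights, 2 members were called at 12 h and 1 at 96 h against DMSO. Calls among all genes were 853 and 1894 with these weights, against 2199 and 3815 as reported. At 96 h against 12 h, 3 members were called with no background correction, with the deposited log2 values and with no filter on dim probes, and 2 with median scaling. Calls among all genes in that comparison were 3904, 3888, 2985 (of 20046) and 2856 in these settings, against 3699 as reported. The F test gave the same counts of members, 3, 3, 3 and 2. At 24 h against 12 h, 0 members were called with median scaling or the mean of a gene's probes (limma, with 2 at an unadjusted p under 0.05 as reported), and 2 with array weights. At 48 h against 24 h the count was 0 with an offset of 50, no background correction, median scaling, the deposited values, no filter, only the arrays compared, or each probe on its own. Median scaling turned uncalled differences from DMSO: DUSP16 was -0.081 at 48 h, -0.18 at 60 h, -0.25 at 72 h and -0.39 at 96 h, DUSP1 -0.20 at 60 h and -0.14 at 72 h, and DUSP2 -0.34 at 96 h. It called 387 genes higher and 1361 lower at 12 h (1147 and 1052 as reported), and 750 higher and 2885 lower at 96 h (2095 and 1720). The cause was not tested.

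Without single arrays the members called were 4 to 6 at 12 h, 3 to 4 at 24 h, 2 to 2 at 48 h, 2 to 3 at 60 and 72 h and 1 to 2 at 96 h against DMSO, 3 to 6 at 96 h against 12 h, 0 to 2 at 24 h against 12 h, 0 to 1 at 48 h against 24 h and 2 to 6 in the F test. Uncalled differences whose sign then turned ranged from -0.33 to 0.31 for DUSP1 at 48 h and -0.0045 to 0.34 at 72 h, from -0.020 to 0.28, -0.074 to 0.13 and -0.18 to 0.21 for DUSP16 at 48, 72 and 96 h, from -0.34 to 0.0066 and -0.15 to 0.19 for DUSP2 at 60 and 96 h, and from -0.46 to 0.019 for DUSP4 at 96 h, all against DMSO. At 48 h against 24 h the ranges were -0.24 to 0.12 for DUSP2 and -0.014 to 0.18 for DUSP6. The number of all genes called also moved with the array left out. The counts of members called without single arrays are therefore not a result about the members.

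Replicate numbers shared between groups did not meet the criterion for pairing, a correlation over 0.1 in every pair: over 21 pairs of groups the correlation of replicate differences ran from -0.20 to 0.42, with a median of 0.29 and 17 over 0.1. With a replicate block, 2 members were called at 24 h against 12 h, and 5 uncalled results became calls: DUSP1 at 24 h (adjusted p = 0.0265) and DUSP10 at 96 h (0.0475) against DMSO, DUSP5 at 96 h (0.0273) and DUSP16 at 24 h (0.0458) against 12 h, and DUSP5 in the F test (0.0209). No reported call of a member was lost. Probes near background (DUSP4, DUSP7, DUSP8) limit what these arrays can show.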
